A study of Mus musculus with 12 samples.

Results

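Heat shock proteins and chaperonins were followed in mouse thymocytes that lack the Mediator subunit MED23 or retain it, with and without stimulation of the T-cell receptor complex by αCD3. The genes were chosen by symbol, as those named for heat shock proteins (Hsp), J-domain proteins (Dnaja, Dnajb and Dnajc), subunits of the chaperonin CCT (Cct and *Tcp1*) and heat shock factors (Hsf). They number 59 of the 8251 genes that have a probe set with 1 gene symbol, and each is represented by the probe set with the highest mean over 12 arrays. Of the 59 genes, 55 passed a filter on low signals (a mean signal of 100 or more in any of the 6 conditions), and the heat shock factors *Hsf2* and *Hsf4*, the small heat shock protein gene *Hspb1* and the J-domain gene *Dnajb5* did not. *Hspg2*, which encodes the matrix proteoglycan perlecan, matches the letters of the rule but is not a heat shock protein, and was counted but put in no class.

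Total thymocytes came from 6 female mice aged 6 to 7 weeks, of C57Bl/6 x 129Sv (F1) background. The 4 controls were 2 Med23+/+;Lck-Cre mice, which carry the Cre transgene and intact *Med23*, and 2 Med23flox/flox mice, whose *Med23* alleles carry LoxP sites without Cre. The 2 MED23 null mice were Med23flox/flox;Lck-Cre. Cells of every mouse rested for 4 h and were then cultured for 3 h with plate-bound αCD3 or mock treated, which gives 1 array per mouse and treatment. The *Lck* promoter drives Cre in the T lineage, so that B cells, myeloid cells and stroma of a null thymus keep *Med23*.

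Chaperones hold unfolded or newly made proteins and help them reach their folded state. HSP70 proteins work in cycles with J-domain partners, which bring substrates and trigger ATP hydrolysis, and with HSP110 proteins, which exchange the nucleotide. HSP90 takes over clients such as kinases and steroid receptors. The ring-shaped CCT folds actin and tubulin in the cytosol, and HSP60 forms the chamber of the mitochondrial chaperonin. Stress-inducible members are driven by heat shock factors at heat shock elements, while chaperones of the endoplasmic reticulum (ER) are driven by the unfolded protein response at ER stress elements.

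Upstream stretches of 4 genes are shown because the genes are compared below by the elements near their starts, from RefSeq windows of GRCm38.p6 that run from 250 bases before to 50 bases after each start. *Hsph1*, *Hspa5* and *Hspe1* are given for the 100 bases before the start, and the *Hspa1b* stretch runs from base -130 to base -31. Capitals mark matches to a heat shock element (GAA and TTC in turn, with 2 free bases between them; a 2-unit match in *Hsph1* and *Hspa1b*, and a run made of overlapping 3-unit matches in *Hspe1*) or, in *Hspa5*, the ER stress element (CCAAT and CCACG with 9 free bases between them), as matched on either strand.

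Hsph1, chr5:149636337-149636436, minus strand: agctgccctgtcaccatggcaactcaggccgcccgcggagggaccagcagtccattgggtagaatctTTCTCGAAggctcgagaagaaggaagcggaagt
Hspa5, chr2:34771990-34772089, plus strand: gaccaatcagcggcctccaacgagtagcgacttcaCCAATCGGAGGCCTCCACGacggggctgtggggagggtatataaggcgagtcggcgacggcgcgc
Hspe1, chr1:55088048-55088147, plus strand: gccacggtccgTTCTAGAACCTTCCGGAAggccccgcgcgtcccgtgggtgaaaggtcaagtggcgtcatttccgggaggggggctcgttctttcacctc
Hspa1b, chr17:34959269-34959368, minus strand: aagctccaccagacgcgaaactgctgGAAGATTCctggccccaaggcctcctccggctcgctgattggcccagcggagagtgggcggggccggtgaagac

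The *Hspa1a* stretch at chr17:34972187-34972286, on the minus strand, is identical to that of *Hspa1b* at 100 of 100 bases. The *Hspe1* stretch also lies upstream of *Hspd1*, since both genes start on chromosome 1 with 215 bases between their starts and run in opposite directions. Windows were given for 50 of the 59 genes. The 2-unit heat shock element (GAANNTTC or TTCNNGAA) was found in 14 of these 50 genes (28%), against 17% of the 27025 genes with a window, and in 6 of 7 stress-inducible cytosolic genes. The 3-unit form, which contains the 2-unit form, was found in *Hsph1*, *Hspd1*, *Hspe1* and *Dnajb6*, or 8% of the genes, against 0.662% of all. The *Hsph1* match to the 3-unit form lies 37 to 49 bases after the start, outside the stretch shown. The ER stress element was found in *Hspa5*, *Hsp90b1* and *Dnajc3*, which are 3 of the 7 ER genes, against 0.137% of all genes. A match of letters is a description of the window and does not show that a factor binds there.

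Some properties of the arrays bear on all values. The 9 thymocyte markers summed to signals of 92241 to 115335 on the 12 arrays, lower in null than in control mice as given below. The *Med23* signal was 365 ± 56.8 (SD, n = 4) in mock control and 238 ± 43.2 (SD, n = 2) in mock MED23 null thymocytes, a log2 difference of -0.53 that did not pass the limma test (adjusted p = 0.621); whether the probe set lies in the deleted part of the gene was not looked up. Of 5 immediate early and activation genes used to check stimulation, 4 passed the test for induction in control mice. These were *Nr4a1*, *Cd5*, *Egr2* and *Nab2*, and *Egr1* did not pass (limma adjusted p = 0.0521). The paper names *Cd5*, *Egr1*, *Egr2* and *Nab2* among genes induced by αCD3 on these same arrays, so the check is not independent. The αCD3 array of Med23flox/flox mouse 1 stood apart, with a lower quartile of the signal of 85.2 against 50 to 58.2 on the other 11 arrays and a mean correlation with the others of 0.928 against 0.952 to 0.958. For single chaperone genes, by the probe set used, a printed log2 value that changed sign or moved by over 1.5 times when this mouse was left out is given without it as well.

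The first comparison asked which chaperone genes respond to αCD3 in control thymocytes. The largest difference was that of *Hsph1*, which encodes the stress-inducible HSP110 of the cytosol and nucleus. Its mock signal in array units was 324 and 290.5 in the Lck-Cre mice and 250.4 and 377 in the Med23flox/flox mice, and after αCD3 it was 744, 565, 971 and 607 in the same order. All 4 αCD3 signals lay above all 4 mock signals. The within-mouse ratio averaged 2.43 ± 1.00 (SD, n = 4), the log2 induction (a difference of log2 signals after 50 was added to each) was 1.08 ± 0.20 (SE), and the limma adjusted p over all 9478 probe sets tested was 0.161. Without Med23flox/flox mouse 1, whose ratio of 3.88 was the highest, the log2 induction was 0.85 (adjusted p = 0.226). A fit that ignored which arrays came from the same mouse gave the same 1.08 with an adjusted p of 0.0256, the setting under which *Hsph1* passed.

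*Hspa5* had the next largest value. It encodes BiP, the HSP70 of the ER lumen and a standard target of the unfolded protein response. Its mock signals were 1230.3, 1024, 1257 and 1276 in the control mice (Lck-Cre 1 and 2, then Med23flox/flox 1 and 2), and its αCD3 signals were 2187, 2069.8, 1599 and 2729.9. The signal was higher in all 4 mice, with no overlap between treatments, and the ratio averaged 1.80 ± 0.384 (SD, n = 4). The log2 induction of 0.80 ± 0.15 (SE) did not pass (limma adjusted p = 0.168), and was 0.95 (adjusted p = 0.145) without Med23flox/flox mouse 1. The other ER genes with an ER stress element did not share this size of difference: *Hsp90b1*, the ER member of the HSP90 family, had a log2 induction of -0.13 ± 0.16 (SE), and *Dnajc3*, a J-domain inhibitor of stress kinases, one of 0.058 ± 0.16 (SE). These were 0.0074 and 0.17 without Med23flox/flox mouse 1. The other tested probe sets of *Dnajc3* gave 0.0062 and 0.45 with all mice.

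*Hspa4l*, an HSP110 relative of *Hsph1*, was also higher after αCD3 in every control mouse. Its signals went from 682 to 836 and from 617 to 919 in the Lck-Cre mice, and from 705 to 1127 and from 517 to 862 in the Med23flox/flox mice. The ratio averaged 1.49 ± 0.194 (SD, n = 4) and the log2 induction was 0.53 ± 0.12 (SE, limma adjusted p = 0.258). The highest mock signal, 705, lay below the lowest αCD3 signal, 836.

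No member passed the test for induction in control mice, where 0.148% of all probe sets tested did (14 of 9478). At an unadjusted p under 0.05 there were 9 of 55 members (16.4%) against 7.78% of all probe sets. By order of the arrays, 9 members (16.4%) were higher after αCD3 in all 4 control mice, against 9.16% of all probe sets. These were *Hsph1*, *Hspa5*, *Hspa4l*, *Hspa14*, *Hspa1l*, *Hspa1b*, *Hsp90aa1*, *Dnajb2* and *Dnajb6*, of which 6 are among the 11 HSP70 and HSP110 genes tested. *Dnajb2* passed the filter through control αCD3 arrays alone, so its place in this count follows in part from the filter. Without Med23flox/flox mouse 1 the count was 13 of 55, against 15% of all probe sets. *Dnajc8* and *Dnajc17* were lower in all 4 control mice, or 3.64% of members against 8.68% of all.

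**Figure D1:**
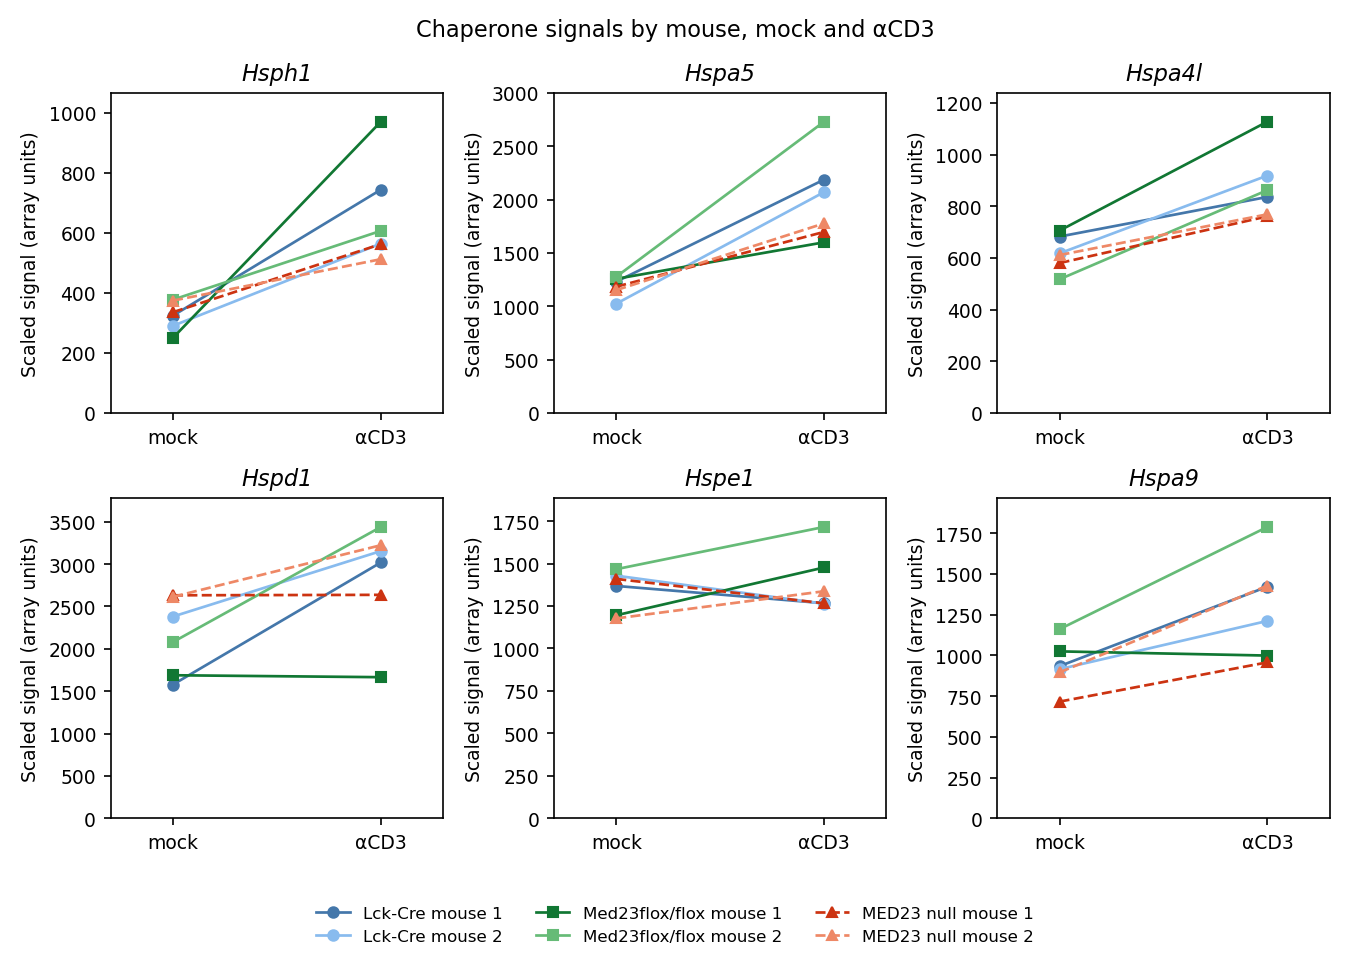
Scaled signal (array units, axis from 0) of 6 chaperone genes in mock and αCD3 arrays; each line joins the arrays of 1 mouse, solid for the 4 controls and dashed for the 2 MED23 null mice. *Hsph1*, *Hspa5* and *Hspa4l* were higher after αCD3 in all 6 mice, and *Hspe1* went in both directions.

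Within the stress-inducible cytosolic class, 6 of 7 genes had a log2 induction above 0 in control mice and the class median was 0.19, where the median of all probe sets was 0.0017. Without Med23flox/flox mouse 1 the median of these 7 genes was 0.16, the value of *Hsp90aa1*. The class median of each control mouse was 0.24 and 0.17 (Lck-Cre) and 0.46 and 0.11 (Med23flox/flox). *Hsph1* accounts for the top of the class. *Hsp90aa1*, the inducible cytosolic HSP90, had signals of 3056, 2603, 2265 and 2672 in mock and 3169, 3028, 3363 and 3099 in αCD3 control thymocytes, a log2 induction of 0.26 ± 0.13 (SE, limma adjusted p = 0.695) that was 0.16 without Med23flox/flox mouse 1. *Dnaja1*, *Dnajb1* and *Dnajb4*, which encode J-domain proteins that feed HSP70, had log2 values of 0.14, 0.052 and 0.19, and *Dnajb4* had 0.11 without that mouse. *Hspa8*, the constitutive HSP70, ranged from 3716 to 5164 over the 12 arrays, with a log2 induction of 0.084 ± 0.14 (SE), or 0.17 without it.

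The inducible HSP70 pair had values of opposite sign. *Hspa1b* signals went from 91.9 to 118, 87.0 to 149.8, 76.6 to 216 and 87.1 to 98.0 in the 4 control mice, which is a log2 induction of 0.49 ± 0.20 (SE, limma adjusted p = 0.621) at signals close to the filter. It was 0.30 (adjusted p = 0.755) without Med23flox/flox mouse 1. *Hspa1a* went from 184 to 137, 147 to 145, 167 to 201 and 139.7 to 100, a log2 value of -0.12 ± 0.17 (SE), or -0.23 without that mouse. These are near-identical copies, with 296 of 300 bases shared in the RefSeq windows, so transcripts of either gene may reach the probes of the other and the values of each are uncertain.

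In the mitochondrial class 5 of 7 genes had a log2 induction above 0 in control mice, with a median of 0.10, or 0.16 without Med23flox/flox mouse 1. Among the 5 was *Dnajc11*, which passed the filter through the Lck-Cre αCD3 condition alone. Its log2 induction of 0.21 thus follows in part from the filter, and *Dnajc11* enters each mitochondrial median given here. *Hspd1* encodes HSP60, the chamber of the mitochondrial chaperonin. Its signals were 1578, 2380.3, 1688 and 2079.8 in mock and 3019, 3153, 1665 and 3438 in αCD3 control thymocytes. It was higher in 3 of 4 control mice, with a log2 induction of 0.50 ± 0.18 (SE, limma adjusted p = 0.578), and without Med23flox/flox mouse 1 the value was 0.67 (adjusted p = 0.376). *Hspe1*, which encodes the HSP10 lid of the same chaperonin and shares the upstream stretch shown above, had ratios of 0.926, 0.884, 1.24 and 1.17 in those mice and a log2 induction of 0.059 ± 0.14 (SE), or -0.020 without that mouse. The mice with *Hspd1* ratios of 1.91 and 1.32 were those with *Hspe1* ratios below 1; the difference between the genes was not tested. *Hspa9*, the HSP70 of the matrix, had ratios of 1.52, 1.32, 0.975 and 1.54 and a log2 induction of 0.38 ± 0.15 (SE, limma adjusted p = 0.615).

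The 9 CCT genes had a median log2 induction of 0.046 in control mice, or 0.10 without Med23flox/flox mouse 1, with 6 values above 0, a range of -0.097 to 0.30 and a smallest adjusted p of 0.704. *Cct3* was the highest, with ratios of 1.67, 1.26, 0.846 and 1.35, and its log2 induction of 0.30 was 0.48 without that mouse (adjusted p = 0.496). With all mice its other probe sets gave 0.10 and 0.42. For *Cct5* the probe set used gave 0.029 and the other 0.23. The 3 classes overlapped: the stress-inducible values ran from -0.12 to 1.08 and the mitochondrial ones from -0.31 to 0.50, where the lowest, *Dnajc4*, was 0.16 without that mouse. Differences between the classes were not tested, since genes are not replicates.

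**Figure D2:**
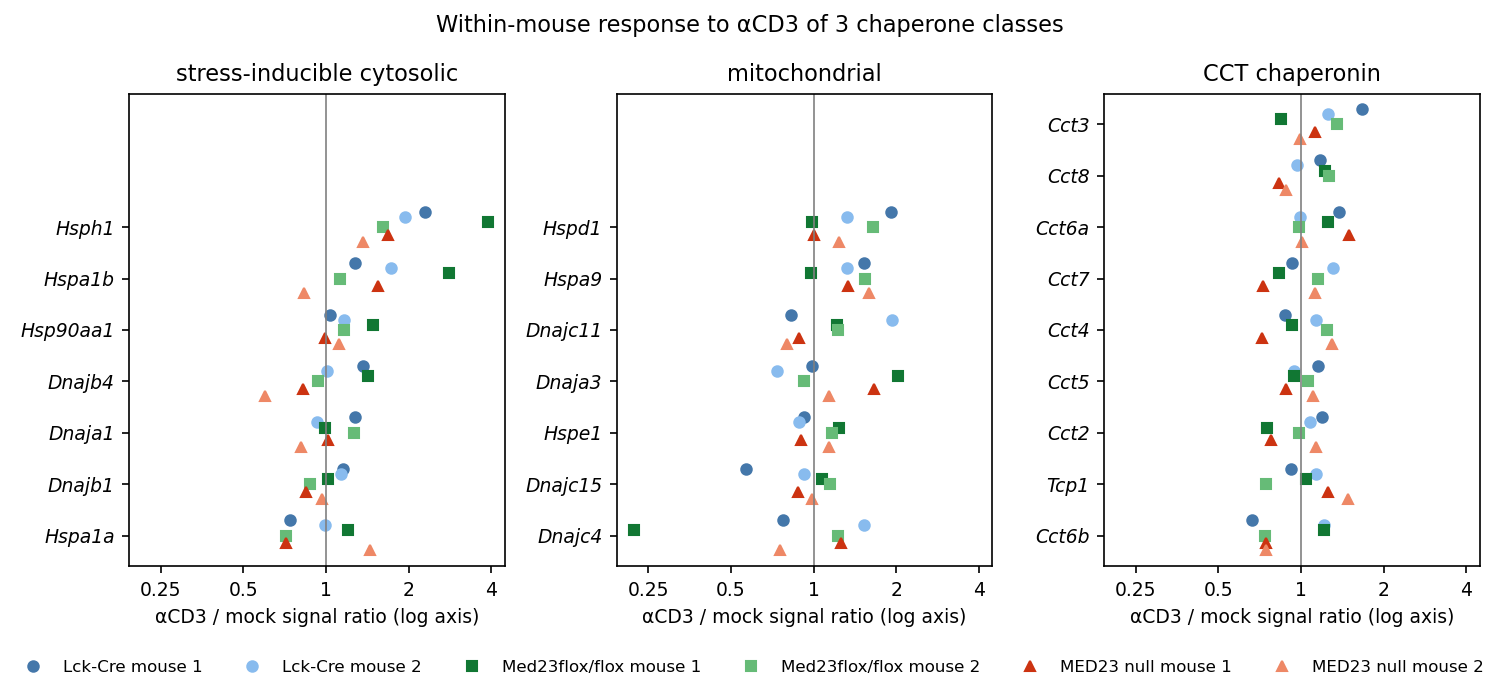
Signal after αCD3 divided by the mock signal of the same mouse (log axis, line at 1) for the tested genes of 3 classes; each symbol is 1 mouse, circles and squares for controls and triangles for MED23 null mice. *Hsph1* lies to the right of 1 in all 6 mice, from 1.37 to 3.88, while the CCT genes scatter around 1.

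The same comparison in the 2 MED23 null mice gave no member past the test, where 0.0317% of all probe sets passed (3 of 9478). The unadjusted p was under 0.05 for 6 members (10.9%) against 5.36% of all probe sets. *Hsph1* signals went from 336 to 563 and from 374 to 512, a mean ratio of 1.52 ± 0.217 (SD, n = 2) and a log2 induction of 0.54 ± 0.28 (SE). *Hspa5* went from 1183 to 1697 and from 1152 to 1777, a log2 induction of 0.55 ± 0.22 (SE). *Hspa4l* went from 580.1 to 761 and from 611 to 769, a log2 induction of 0.34 ± 0.17 (SE). With *Hspa14* and *Hspa1l* these make 5 members (9.09%) that were higher after αCD3 in all 6 mice, against 3.61% of all probe sets, and all of them encode HSP70 or HSP110 proteins. No member was lower in all 6 mice, where 2.17% of all probe sets were.

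The median log2 induction over the ER genes was 0.18 in null mice, and that over the other J-domain genes was -0.24. The stress-inducible median was -0.018 and -0.050 in the 2 null mice, below all 4 control mice, and 0.013 for the mean of both. The mitochondrial median was 0.014 and the CCT median -0.048, with CCT medians of -0.25 and 0.14 in the 2 null mice. *Hspa9* had ratios of 1.34 and 1.60, within or just above the control range, and *Hspd1* had ratios of 1.00 and 1.23.

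The second comparison asked whether the response to αCD3 differs between MED23 null and control mice. No member and no probe set passed (0% of 9478), and at an unadjusted p under 0.05 there was 1 member (1.82%) against 5.13% of all probe sets (486). For *Hsph1* the null induction was lower by a log2 difference of -0.54 ± 0.34 (SE, limma adjusted p = 1.00), and for *Hspa5* the difference was -0.24 ± 0.27 (SE). These differences were -0.32 and -0.40 without Med23flox/flox mouse 1. Both ratios of the null mice lay inside the control range for *Hspa5* and for *Hspd1*, and for *Hsph1* 1 of them did. The median difference was -0.27 over the stress-inducible genes, 0.049 over the mitochondrial genes and -0.094 over the CCT genes, against -0.018 over all probe sets, and without Med23flox/flox mouse 1 these classes had -0.18, -0.0035 and -0.15.

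Both null log2 inductions lay below all 4 control log2 inductions for 5 members (9.09%): *Cct8*, *Dnajb3*, *Dnajb4*, *Dnajc5* and *Hspg2*. Of all probe sets 7.42% did so. *Dnajb4*, a stress-inducible partner of HSP70, was the member with an unadjusted p under 0.05. Its ratios were 1.36, 1.01, 1.42 and 0.933 in control and 0.821 and 0.598 in null mice, a log2 difference of -0.62 ± 0.26 (SE, limma adjusted p = 0.964). The null log2 inductions lay above all control log2 inductions for *Tcp1* and *Dnajc17* (3.64%, against 6.06% of all probe sets).

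MED23 null and control thymocytes were then compared within each treatment. In mock cells no member and no probe set passed (0%). An unadjusted p under 0.05 was found for 2 members (3.64%) against 7.4% of all probe sets (701). *Hspd1* separated the groups in mock cells. Both null arrays, at 2631 and 2613, lay above the 4 control arrays, which ran from 1578 to 2380.3, and the log2 difference was 0.45 ± 0.20 (SE, limma adjusted p = 0.679). After αCD3 the null arrays, at 2636 and 3222, lay among the controls (1665 to 3438) and the log2 difference was 0.099 ± 0.31 (SE). That difference was -0.13 without Med23flox/flox mouse 1, which had the lowest control array. *Hspa9* went the other way in mock cells, with 716 and 896 in null against 915 to 1161 in control mice, a log2 difference of -0.31 ± 0.17 (SE, limma adjusted p = 0.738).

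Null arrays lay above all mock controls for 4 members (7.27%, against 9.27% of all probe sets), which were *Hspd1*, *Hspa1b*, *Dnajb13* and *Hspg2*. They lay below for 5 members (9.09%, against 8.44%), which were *Hspa9*, *Hspa2*, *Hspb11*, *Dnajc8* and *Dnajb11*. *Hspa2*, a testis-enriched HSP70, had a log2 difference of -0.80 ± 0.16 (SE, limma adjusted p = 0.273), but it passed the filter in the Med23flox/flox αCD3 condition alone, through the 164 of the array that stood apart, and was not tested without that mouse. Its mock signals were 64.6, 41.6, 44.8 and 44.3 in control and 7.60 and 5.30 in null mice, all below the filter of 100, and the αCD3 groups overlapped. *Dnajb13*, a J-domain protein of the sperm flagellum, had mock signals of 363, 370.0, 420.0 and 267 in control and 506 and 539 in null mice, a log2 difference of 0.51 ± 0.19 (SE, limma adjusted p = 0.635).

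In αCD3 cells again no member and no probe set passed (0%). An unadjusted p under 0.05 was found for 2 members (3.64%) against 6.16% of all probe sets (584). Null arrays lay below all control arrays for 9 members (16.4%), against 8.61% of all probe sets, and above for 1 member, *Dnajc7* (1.82%, against 6.90%). The 9 were *Hsph1*, *Hspa4l*, *Cct8*, *Dnajb2*, *Dnajb3*, *Dnajb4*, *Dnajc5*, *Dnajc21* and *Hspb2*. *Dnajb2* passed the filter through control αCD3 arrays alone, the group in which it is counted as higher. Without Med23flox/flox mouse 1 the count below was 14, against 12.7% of all probe sets. Of the 55 members, 38 had a log2 difference under 0, and their median was -0.090 where that of all probe sets was -0.014.

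*Cct8*, a subunit of the CCT ring, had αCD3 signals of 1068, 839, 991 and 1297 in control and 733 and 658 in null mice. The groups did not overlap, and the log2 difference was -0.54 ± 0.21 (SE, limma adjusted p = 0.769). In mock cells it was 912, 871, 811 and 1027 against 879 and 747, which overlapped. The other 8 CCT genes had αCD3 log2 differences of -0.28 to 0.029, so *Cct8* lay below the other subunits of its ring.

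*Hsph1* αCD3 signals were 563 and 512 in null mice, just below the lowest control at 565, and the log2 difference was -0.37 ± 0.24 (SE, limma adjusted p = 0.904), or -0.22 (adjusted p = 0.826) without Med23flox/flox mouse 1. *Dnajb4* signals were 387, 349, 540.4 and 241 in control and 232 and 207 in null mice, a log2 difference of -0.63 ± 0.29 (SE, limma adjusted p = 0.841). *Dnajc7*, a cochaperone that binds HSP70 and HSP90, was 2534 and 2629.9 in null and 1360.0 to 2374 in control mice, a log2 difference of 0.38 ± 0.26 (SE, limma adjusted p = 0.906). The median αCD3 difference was -0.20 over the stress-inducible genes, 0.082 over the mitochondrial genes and -0.13 over the CCT genes. Without Med23flox/flox mouse 1 these were -0.12, -0.10 and -0.12, so that the mitochondrial median turned its sign. In mock cells the medians were 0.079, -0.011 and -0.0026 with all mice and 0.086, 0.014 and 0.019 without that mouse.

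**Figure D3:**
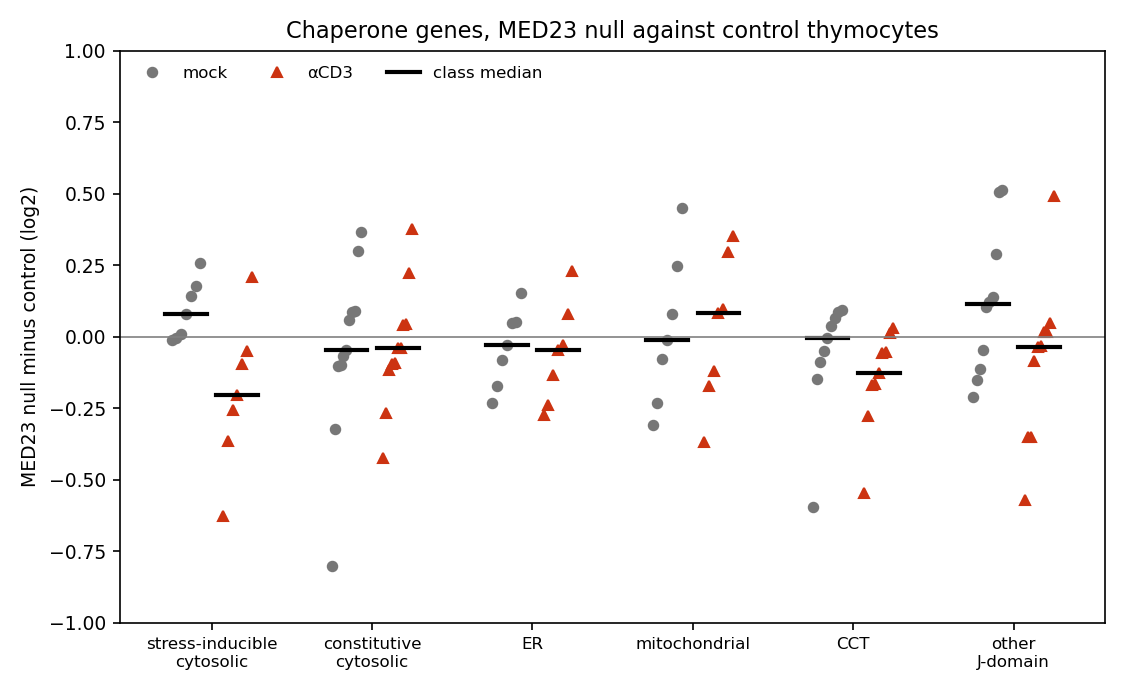
Log2 difference between 2 MED23 null and 4 control mice for each tested member of 6 classes, in mock (grey circles) and αCD3 arrays (red triangles), with class medians as bars. In αCD3 arrays 6 of 7 stress-inducible genes lie below 0; none of the differences passed the test.

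Other features of the arrays moved with genotype. The summed signal of 9 thymocyte markers was 109055 to 115335 in mock control and 92241 to 97396 in mock null mice, and 99522 to 102066 and 94650 to 97867 after αCD3, so that the sum was lower on every null array. Single markers were mixed, with 2 of the 9 higher in null mice in mock and 3 in αCD3 arrays. Log2 differences in mock and αCD3 arrays were 0.29 and 0.17 for *Cd4*, and 0.14 and 0.55 for *Thy1*. The summed signal of 5 mature single positive markers was 5447 to 7063 in mock control and 2717 to 2878 in mock null mice, and that of 4 B cell markers was 6175 to 6698 and 7323 to 7483. Myeloid markers, 5 of them measured, lay higher in null mice, at 1481 to 1555 against 1028 to 1405 in mock and 1583 to 1650 against 1255 to 1474 in αCD3 arrays. The 2 erythroid markers summed to 6153 to 16590.1 in control and 14711 to 37029 in null mice in mock arrays, and of 5 epithelial markers 3 were below 100 on all arrays. The 3' to 5' ratio of actin probe sets, which tracks RNA integrity, was 1.904 and 1.608 on the null αCD3 arrays and 1.347 to 1.411 on the control αCD3 arrays. In mock arrays it overlapped, at 1.443 and 1.634 in null and 1.354 to 1.6 in control mice. The same ratio for *Gapdh* overlapped on the αCD3 arrays, at 0.6356 and 0.7661 in null and 0.5989 to 0.6483 in control mice. The part of all these features in the differences above was not tested. On arrays of a whole thymus fewer cells of a type and less RNA per cell cannot be told apart. By other assays, the paper reported normal proportions of thymic CD4 and CD8 subsets. It also reported lower *Klf2* and *Cd52* mRNA in isolated CD4 single positive null thymocytes, and both genes are among the 5 mature markers.

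Some members differed widely between mice. The average log2 signal of a mouse spanned over 1 across the 6 mice for 4 members (7.27%), against 18.3% of all probe sets. *Hspa1l*, a testis-enriched HSP70 encoded beside *Hspa1a* and *Hspa1b*, had the widest span, 2.07. It was 126 and 183 (mock, then αCD3) in Lck-Cre mouse 1, 47.9 and 56.8 in Lck-Cre mouse 2, 293 and 485 and then 97.8 and 105 in the Med23flox/flox mice, and 39.0 and 75.3 and then 162 and 269 in the null mice. The mice kept nearly the same order in both treatments, and the genotypes overlapped.

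*Tcp1*, the founding subunit of CCT, spanned 1.71. Its 8 control signals ran from 356 to 479, while null mouse 1 had 522 and 656 and null mouse 2 had 118 and 175. The null mice thus lay on opposite sides of the controls, and no other CCT gene spanned over 1. *Dnajc15*, a J-domain protein of the inner mitochondrial membrane, spanned 1.04. Lck-Cre mouse 2 (1224 and 1128) and null mouse 2 (1181 and 1165) lay above the other 4 mice, which ran from 444 to 781. *Hspa2*, at low signals, was the remaining member.

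**Figure D4:**
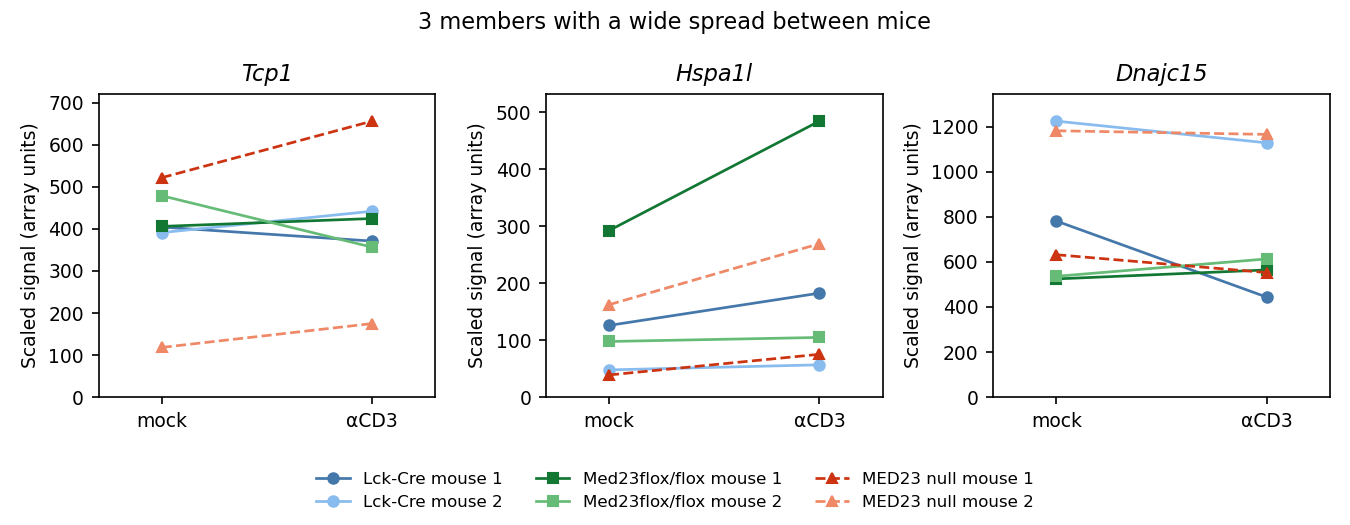
Scaled signal (array units, axis from 0) of *Tcp1*, *Hspa1l* and *Dnajc15* in mock and αCD3 arrays, with 1 line per mouse (solid controls, dashed MED23 null). Lines of different mice lie far apart within a genotype; null mouse 2 is the lowest for *Tcp1* and among the highest for *Dnajc15*.

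Genes of the same systems outside the symbol rule were also listed. Of 30 cochaperones and other chaperones, 22 were tested and none passed in any comparison, with 11 higher and 11 lower after αCD3 in control mice and a median log2 induction of 0.0073. Of 21 ER stress genes, 17 were tested and none passed, with 8 higher and 9 lower and a median of -0.045. The ER stress transcription factor gene *Xbp1* and *Manf* and *Creld2*, which encode secreted ER stress proteins, were higher in all 4 control mice, with log2 inductions of 0.21, 0.22 and 0.31, while *Ddit3* and *Atf4*, transcription factors of the integrated stress response, had values of -0.11 and 0.052. *P4hb*, another of the 17, was lower in all 4 control mice, with a log2 induction of -0.50 ± 0.32 (SE). Of all probe sets, 9.16% were higher and 8.68% lower in all 4. In MED23 null against control mice 12 of the 17 were lower in mock and 12 in αCD3 arrays, with medians of -0.14 and -0.17. The medians over all probe sets were 0.015 and -0.014, and both treatments used cells of the same mice.

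Several probe sets were tested for 11 member genes, and their control inductions had both signs for 2 of them, *Dnajc1* and *Hspa4*. *Dnajc1*, which encodes a J-domain protein of the ER membrane, had a log2 induction of 0.34 by the probe set used and -0.39 by the other. *Hspd1* had 0.50 and, by its dimmer probe set, 0.95. Signs of the null against control differences were not counted in this way. For *Dnajb9* these were 0.15 in mock and 0.23 in αCD3 arrays by the probe set used, and -0.51 and -0.67 by the other.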

How the data were processed

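RNA of total thymocytes was hybridised to Affymetrix Murine Genome U74A Version 2 arrays, and the deposited values are linear intensity values that the authors computed as MAS5 signals (version not given in the sources used here) and analysed in Spotfire. Here the 12 arrays were scaled by a trimmed mean (2% at each end) over all 12488 probe sets; 66 control probe sets were left out, and 9478 passed the filter of 100. Symbols came from the platform annotation. Signals were tested as log2(signal + 50) with limma 3.58.1 in R 4.3.3 (lmFit, eBayes), with Benjamini-Hochberg adjustment over all 9478 and a threshold of 0.05; fold changes on this scale understate changes of low signals. Induction used differences within each mouse, since the labels give the mouse of each array, which left 4 residual degrees of freedom. The 5 comparisons share arrays. The number of arrays limits the precision. Code was tested on simulated data, and Python 3.11.15 with pandas 2.3.3 and Matplotlib 3.10.9 made summaries and plots.

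The members, classes, lists and naming rule (all tested stress-inducible, mitochondrial and CCT genes, the 3 largest control inductions of other classes, and the 4 largest null differences each way without overlap) were chosen with earlier results of these data known. *Hspa8*, *Hsp90b1*, *Dnajc3*, *Hspa14*, *Hspa4*, *Dnajb6*, *Dnajb11*, *Dnajc5*, *Xbp1*, *Manf*, *Creld2*, *Ddit3*, *Atf4*, *P4hb*, *Cd4* and *Thy1* were named after their values were seen. Alternatives were the pseudocount, filter, scaling, variance trend, choice of controls, omission of each mouse and no block.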

Additional observations from a re-analysis of the deposited data

Results flagged for a closer look

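In groups of 4 control mice, the highest or lowest mouse was set against its distance from the others, a rule that chance meets in about 1 in 20 groups; 3 of 49 groups met it. *Dnajc17*, a J-domain protein linked to splicing, had a log2 induction of -0.946 in Med23flox/flox mouse 1 against -0.108, -0.112 and -0.138 in the other controls. *Hspa2*, which passed the filter through 1 condition alone, had a mock log2 signal of 6.84 in Lck-Cre mouse 1 against 6.52 to 6.57, and *Hspg2* one of 7.35 in Med23flox/flox mouse 2 against 7.43 to 7.44. *Dnajc17* also went in opposite directions by genotype: its signal was lower after αCD3 in all 4 control mice and higher in both null mice, with mean log2 inductions of -0.33 and 0.21. The difference of 0.54 did not pass the limma test. Without Med23flox/flox mouse 1 the control induction was -0.12 and the difference 0.33.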

How the results depend on the processing

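The count of members past the test was 0 in 82 of 83 recomputations over the 5 comparisons. It was 1 (*Hsph1*, log2 induction 1.08) in the fit with no replicate block, which ignores the pairing of arrays by mouse. Of 240 class medians, 230 moved by less than the spread between mice. The stress-inducible null induction was 0.039 with no signal filter, -0.13 with a filter of 200 and 0.041 with quantile normalization, and ran from -0.050 to 0.039 when each mouse was left out. Leaving out mice gave -0.42 to -0.18 for its difference in induction, 0.0029 to 0.17 for the mitochondrial null induction and -0.25 to 0.11 for the CCT difference in induction; the values -0.42, 0.17 and 0.11 were those without null mouse 1.

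Among the genes named by rule, the control induction of 15 changed sign. With Lck-Cre controls alone they were 0.17 (*Cct2*), -0.0066 (*Cct4*), -0.21 (*Dnaja3*), -0.039 (*Dnajc21*), 0.11 (*Dnajc4*), -0.14 (*Hspe1*) and 0.024 (*Tcp1*). With Med23flox/flox controls alone they were -0.029 (*Cct7*), -0.081 (*Dnajb1*), -0.23 (*Dnajb8*), 0.14 (*Dnajc15*) and -0.090 (*Hspb2*). Leaving out a mouse gave -0.10 to 0.10 for *Cct2*, -0.041 to 0.13 for *Cct4*, -0.027 to 0.068 for *Cct5*, -0.21 to 0.034 for *Cct6b*, -0.053 to 0.16 for *Cct7*, -0.18 to 0.27 for *Dnaja3*, -0.0059 to 0.20 for *Dnajb9*, -0.26 to 0.054 for *Dnajc15*, -0.58 to 0.16 for *Dnajc4*, -0.026 to 0.12 for *Hspb2*, -0.020 to 0.14 for *Hspe1* and -0.14 to 0.035 for *Tcp1*. The cause was not tested.

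Counts by order of the arrays were recomputed after seeing the data. Members with null arrays below all αCD3 controls numbered 7 to 9 of 55 (12.7% to 16.4%) under other scalings, against 7.58% to 8.58% of all probe sets. They numbered 9 to 21 without a mouse, where the share of all probe sets was 11.4% to 22.8% (20% beside the 21). Those above numbered 0 with quantile normalization, against 7.7% of all probe sets. Without a mouse they numbered 1 to 6, where the share of all probe sets was 9.31% to 19.7%. In mock cells, leaving out a mouse gave 6 to 12 below (11.2% to 21.5% of all probe sets) and 4 to 14 above (11.9% to 22.9%).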
